A study of Rattus norvegicus with 42 samples.

Results

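Transcripts of 9 complement genes were followed in the hippocampal RNA of neonatal rats, namely C1qa, C1qb, C1qc and C1s of the classical pathway, the central component C3, Cfd of the alternative pathway, the inhibitor Serping1 and the receptors C3ar1 and C5ar1. They were chosen by gene symbol from the deposited count table. All 9 genes were found, with 1 transcript each, among 14304 symbols and 15516 transcripts, and all 9 passed the filter on low counts that left 13062 transcripts to test. Male Sprague Dawley pups, wild type, received a single intraperitoneal injection on postnatal day 7 of saline vehicle (VEH, 13 animals), phenobarbital at 75 mg/kg (PB, 14 animals) or levetiracetam at 200 mg/kg (LEV, 14 animals). Both drugs are antiseizure medications used in newborns. Hippocampi were taken 72 h later, on postnatal day 10, after perfusion with saline buffer, and each animal gave 1 library. The comparisons asked whether either drug changed these transcripts relative to VEH, and whether the drugs differed from each other.

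Complement is a cascade of proteases and binding proteins that marks surfaces for removal. C1q, built from the chains encoded by C1qa, C1qb and C1qc, recognizes a target and activates its partner proteases, of which C1s cleaves the next components, until C3 is split and its fragments attach. The alternative pathway reaches C3 through factor B, which factor D (Cfd) cleaves. In the developing brain microglia are the main source of C1q, and C1q and C3 are known for tagging synapses that microglia then engulf. In bulk tissue, fewer cells of a type and less RNA per cell cannot be told apart.

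Total estimated counts lay between 9499492 and 14488134 in the 41 animals. Levels are given as normalized counts, that is, counts scaled to the mean effective library size of 11405252, and were compared between animals of a gene and not between genes. The sample codes came in 2 forms, a two-letter form for animals 1 to 6 of each group and a one-letter form for the later numbers, and the form was the batch term of the test. It moved with 3946 of 13062 transcripts (30.2%) at an adjusted p under 0.05. One library went against the label male. In VEH animal 1 the Y-linked transcript Eif2s3y had 1 count, against 705 to 1028 in the other 40 animals analysed, and results that change without this animal are given both ways. PB animal 2 stood apart in the C1q transcripts, as described with them. The methods of the study took 1 animal per litter for each treatment and balanced treatments within litters, over 2 orders of animals, but the labels do not say which animals are littermates. The p-values are from a test that treated the animals as independent.

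Promoter sequences are shown for Cfd and C3, the members with the largest differences between PB and VEH. They were taken from RefSeq for the build GRCr8, whose coordinates are not those of the count table, and run from 250 bases before to 50 bases after the start site. Of the 9 genes, 5 had an entry. The Cfd window is chr7:10465447-10465746, minus strand, and the C3 window is chr9:2201290-2201589, minus strand. Capitals mark a match to one of 4 motifs searched on both strands, the PU.1-type site GAGGAAG, the C/EBP-type site TTNNGCAA, the NF-kB-type site GGGNNTTCC and the TATA box TATAAA.
Cfd: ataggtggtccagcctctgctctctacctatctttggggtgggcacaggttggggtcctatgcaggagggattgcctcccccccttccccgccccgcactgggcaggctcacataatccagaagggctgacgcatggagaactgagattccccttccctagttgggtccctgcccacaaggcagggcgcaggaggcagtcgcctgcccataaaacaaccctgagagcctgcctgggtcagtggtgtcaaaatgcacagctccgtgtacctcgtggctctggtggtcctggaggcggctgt
C3: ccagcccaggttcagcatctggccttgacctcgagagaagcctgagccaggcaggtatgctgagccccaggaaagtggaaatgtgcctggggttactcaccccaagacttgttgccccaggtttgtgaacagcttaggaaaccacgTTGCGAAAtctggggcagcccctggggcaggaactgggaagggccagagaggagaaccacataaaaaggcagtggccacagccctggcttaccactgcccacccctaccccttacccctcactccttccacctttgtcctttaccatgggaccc
The C3 window held 1 match, TTGCGAAA at position -104 from the start site, which is the C/EBP-type site read on the opposite strand. The Cfd window held no match to the 4 motifs. Of 33469 RefSeq promoters of this length, 10.6% held the C/EBP-type site, 12.4% the PU.1-type site, 5.92% the NF-kB-type site and 14.2% the TATA box. Among the other 3 members with an entry, C1qb held an NF-kB-type match at position -245, and C1qa and C3ar1 held none. A match is a run of letters and was not tested as a binding site.

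One of the 9 members was differentially expressed between PB and VEH at the limits of the study (adjusted p below 0.05, log2 change of 0.32 or more either way) in edgeR's quasi-likelihood test, where 79 of the 13062 transcripts (0.605%) passed. That member was Cfd, which was higher after PB. An unadjusted p under 0.05 was found for 2 of the 9, Cfd and C3, against 20.2% of all transcripts. Between LEV and VEH none of the 9 passed, as for all 13062 transcripts (0%), and none had an unadjusted p under 0.05, which 763 transcripts (5.84%) had. DESeq2 with default settings called 0 members and 5 transcripts in this comparison. It also called 0 of the 7 members with an adjusted p for PB against VEH (85 transcripts called) and for PB against LEV (86). Cfd was not among these 7. In edgeR's test 1 member passed between PB and LEV, again Cfd, against 76 transcripts (0.582%). There 3 of the 9 (Cfd, C3ar1 and C3) had an unadjusted p under 0.05, against 19.6% of all. The median log2 fold change of the 9 members was 0.10 for PB against VEH, -0.02 for LEV against VEH and 0.16 for PB against LEV, beside 0.0046, 0.00033 and 0.0033 over all transcripts tested. The comparisons with PB share the PB animals and those with VEH share the VEH animals, so their values are not independent of each other.

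**Figure D1:**
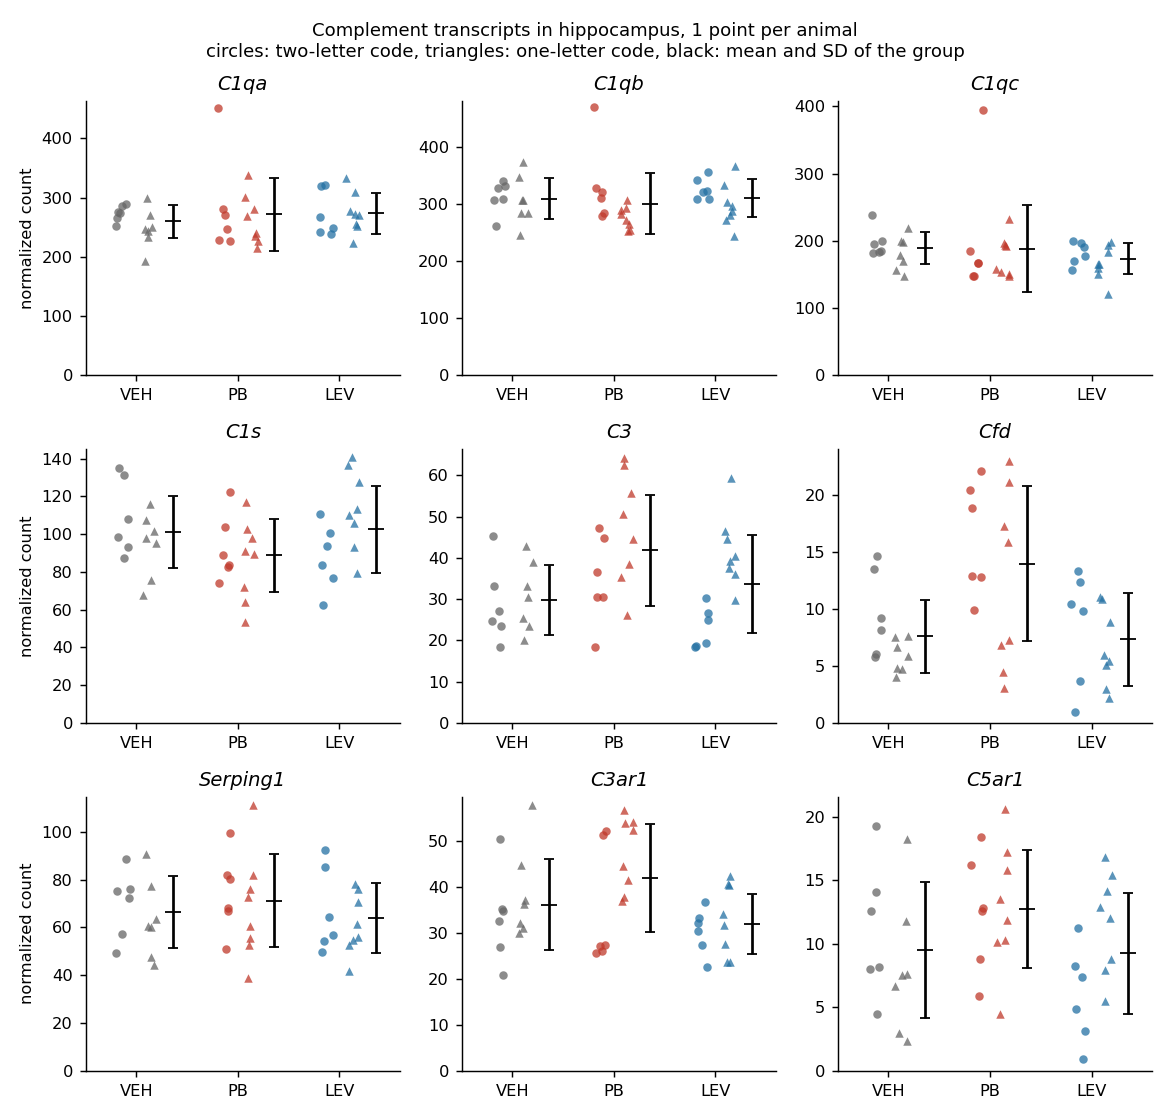
Normalized counts (vertical axes, each from 0) of the 9 complement transcripts in each of 13 VEH, 14 PB and 14 LEV animals. Points are animals, circles with the two-letter and triangles with the one-letter form of the sample code, and black bars are the group mean and SD. The 3 groups overlap for all 9 transcripts, 7 of 14 PB animals lie above all VEH animals for Cfd, and PB animal 2 stands far above the rest for the C1q chains.

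The recognition molecule C1q did not differ detectably between the treatments. Its genes lie next to each other on chromosome 5 of rn6, C1qb at 155246444 to 155251994, C1qc at 155255025 to 155258352 and C1qa at 155261254 to 155264102. The normalized count of C1qa ran from 194 over a median of 265 to 299.6 in VEH, from 216 over 258 to 451 in PB and from 224 over 269 to 334 in LEV. Nearly all animals lay in the same range, and only PB animal 2 stood far off. The log2 fold change of C1qa was 0.07 for PB against VEH (95% interval -0.10 to 0.24) and 0.08 for LEV against VEH (-0.09 to 0.24). For C1qb the counts ran from 246 over 307 to 374 in VEH, from 252 over 287 to 470.2 in PB and from 245 over 309 to 367 in LEV. Its log2 fold change was -0.04 for PB (95% interval -0.18 to 0.09) and 0.01 for LEV (-0.13 to 0.14). For C1qc the counts ran from 148 over 185 to 238 in VEH, from 147 over 167 to 395 in PB and from 121 over 174 to 199 in LEV. The log2 fold change of C1qc was -0.00050 for PB (95% interval -0.21 to 0.21) and -0.12 for LEV (-0.33 to 0.10). These intervals are the narrowest among the 9 members, and for C1qb they reach no further than 0.18 in either direction.

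PB animal 2 had the highest level of all 41 animals for each of the 3 chains. Its normalized counts were 451 for C1qa, 470.2 for C1qb and 395 for C1qc, where the next PB animal had 338, 329 and 232. The summed level of the chains was 1316 in this animal, while VEH ran from 636 to 872 and LEV from 649 to 860. Without it the log2 fold change for PB against VEH was -0.01 for C1qa, -0.10 for C1qb and -0.13 for C1qc, with adjusted p 0.973, 0.335 and 0.380. The sign of C1qa turned, and C1qc moved furthest of the 3. The same animal had the lowest C3 level of the PB group, 18.4 normalized counts.

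**Figure D2:**
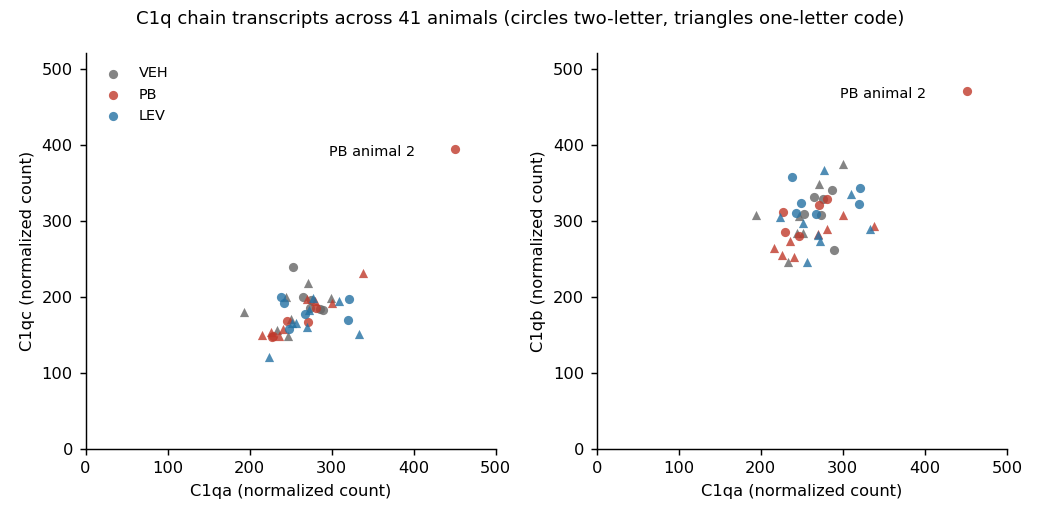
Normalized counts of C1qc (left) and C1qb (right) against those of C1qa in the 41 animals, colored by treatment, with circles for the two-letter and triangles for the one-letter code. PB animal 2 lies at the top right of both panels, and the treatments intermix among the other 40 animals.

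The chains varied together across animals. After removal of the treatment and code form means, log2 CPM correlated at r = 0.71 between C1qa and C1qc, 0.67 between C1qb and C1qc and 0.58 between C1qa and C1qb over 41 animals. Without PB animal 2 the values were 0.55, 0.51 and 0.42. Each pair of values comes from the same libraries and shares their depth. The summed level of 11 of 12 listed microglial markers found in the table (the C1q genes kept out) was 2873 to 3346 in VEH, 2569 to 3475 in PB and 2635 to 3448 in LEV, so the 3 ranges overlap. Over the 41 animals r between the mean log2 CPM of this list and C1qa, C1qb and C1qc was 0.21, 0.21 and 0.13. Without PB animal 2 it was 0.34, 0.33 and 0.29.

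C1s, the protease of the C1 complex that cleaves C4 and C2, was slightly lower in PB animals without passing the test. Its normalized counts (chromosome 4, 157143592 to 157155597) ran from 67.8 over 98.3 to 134.8 in VEH, from 53.7 over 89.4 to 122.6 in PB and from 62.4 over 103.2 to 140.9 in LEV. Of the 14 PB animals, 10 were below the VEH mean of their own code form. The log2 fold change was -0.20 ± 0.12 (SE) for PB against VEH, with an adjusted p of 0.362, and 0.01 ± 0.12 for LEV against VEH. The SERPING1 product, C1 inhibitor, blocks C1s and its partner C1r. Serping1 (chromosome 3, 72161243 to 72170538) ran from 44.1 over 63.5 to 90.6 in VEH, from 38.9 over 70.4 to 111.1 in PB and from 41.8 over 59.1 to 92.2 in LEV. The 3 ranges largely coincide. Its log2 fold change was 0.10 for PB (95% interval -0.16 to 0.37) and -0.05 for LEV (-0.32 to 0.21), and 7 of 14 PB animals were above the VEH mean of their form. Serping1 correlated with the mean log2 CPM of the choroid plexus markers (r = 0.48, after removal of treatment and code form means). The summed normalized counts of these markers varied from 55.6 to 53635 in VEH, 103 to 84935 in PB and 62.7 to 61397 in LEV.

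Cfd, the member that passed, encodes factor D, the protease that starts the alternative pathway and is also made in quantity by fat cells under the name adipsin. Cfd (chromosome 7, 12634216 to 12635940) ran from 4.02 over a median of 6.68 to 14.6 normalized counts in VEH, from 3.08 over 14.3 to 22.9 in PB and from 0.948 over 7.37 to 13.3 in LEV. The PB animals spread widely, with 7 of 14 above every VEH animal, 7 of 14 above every LEV animal, and 1 below every VEH animal. The means were 7.58 ± 3.23 (SD, n = 13) in VEH, 14.0 ± 6.78 (SD, n = 14) in PB and 7.34 ± 4.06 (SD, n = 14) in LEV. Cfd rose by a log2 fold change of 0.90 ± 0.27 (SE; 1.87-fold, 95% interval 1.28 to 2.73) in PB against VEH, with an adjusted p of 0.0409. Against LEV the log2 fold change was 0.92 ± 0.27 (1.89-fold, 1.30 to 2.75), with an adjusted p of 0.0373. LEV against VEH gave -0.02 ± 0.29, with an interval of -0.61 to 0.57 that leaves changes of either direction undetected at this depth. Within code forms the PB effect on Cfd was 0.76 ± 0.39 in two-letter animals, where 6 of 6 PB animals were above the VEH mean, and 1.04 ± 0.39 in one-letter animals, where 6 of 8 were.

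The depth behind Cfd was small, 1 to 25 estimated counts per animal, and both calls were close to the limit. Of 41 fits that each left out 1 animal, 25 made the call for PB against VEH, with log2 fold changes of 0.90 to 0.98. Of the 41 fits, 14 left out a LEV animal, which is in neither group compared. The call was lost in 9 of the 13 fits without a VEH animal and in 7 of the 14 without a PB animal. It was lost without VEH animal 1, 3, 4, 5, 8, 10, 11, 12 or 13 and without PB animal 2, 3, 6, 8, 9, 10 or 11, where the adjusted p was 0.0513 to 0.0759 and the log2 fold change 0.81 to 0.92. For VEH animal 1, the library that went against its label, the values without it were 0.85 and 0.0660. The call for PB against LEV was made in 30 of 41 fits. It was lost without LEV animal 2, 4, 11, 13 or 14 and without PB animal 2, 6, 8, 9, 10 or 11. There the adjusted p was 0.0557 to 0.0698 and the log2 fold change 0.81 to 0.90. These losses were 5 of the 14 fits without a LEV animal, 6 of the 14 without a PB animal and 0 of the 13 without a VEH animal. Without VEH animal 1 the log2 fold change against LEV was 0.92, with an adjusted p of 0.0403. With both VEH animal 1 and PB animal 2 left out, Cfd stood at 0.82 (adjusted p 0.0931) against VEH and 0.89 (0.0619) against LEV.

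Markers of other cells were set beside Cfd. Of 6 listed adipocyte markers 5 were in the table and none passed the filter on low counts. Their summed level was 8.91 to 21.5 normalized counts in VEH, 0.982 to 37.5 in PB and 2.198 to 28.7 in LEV, with medians of 14.3, 13.6 and 15.7, and the defining markers Adipoq and Plin1 had medians of 1 and 0 estimated counts. The 3 medians of the summed adipocyte level were close, the PB range was the widest, and Adipoq reached at most 24 estimated counts. These markers had too few counts to be tested. Skeletal muscle markers moved with PB in the opposite direction. All 7 listed were in the table and 4 were tested, of which 3 were lower after PB than after VEH, with log2 fold changes of -0.44 for Acta1, -2.06 for Myh4 and -2.46 for Atp2a1 (adjusted p 0.0102, 0.00426 and 0.00105). Their summed level was 138 to 498 in VEH, 119 to 200.4 in PB and 129 to 608 in LEV. Across 41 animals the correlation of Cfd with the muscle markers was -0.15 after removal of group means, in values that share libraries and depth. Among the lists with a tested marker, the furthest correlations of Cfd were 0.33 with endothelium (0.41 without PB animal 2) and -0.31 with the single tested blood leukocyte marker. No correlation with the adipocyte list was computed, since none of its markers passed the filter. Of the 9 endothelial transcripts tested none passed for PB against VEH, and 3 were lower at an unadjusted p under 0.05, with log2 fold changes of -0.17 for Cldn5, -0.15 for Tek and -0.13 for 1 of 2 Flt1 transcripts. Their summed level was 3356 to 4284 in VEH, 2915 to 4266 in PB and 3649 to 4422 in LEV. The part of these markers in the Cfd difference was not tested.

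**Figure D3:**
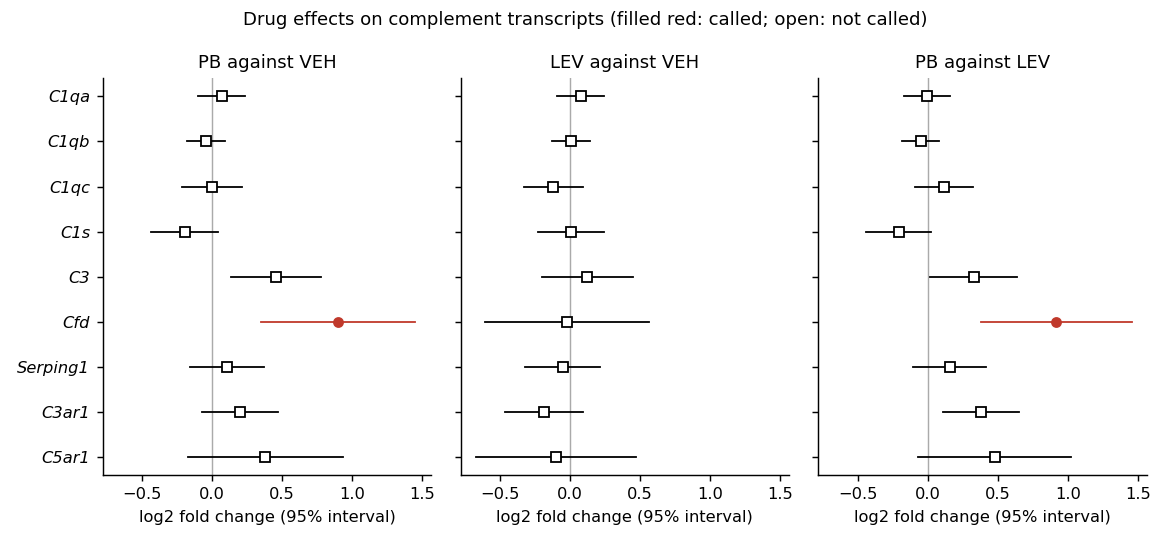
Log2 fold changes (horizontal axes) of the 9 members in the 3 comparisons, with 95% intervals from edgeR's quasi-likelihood fit. Filled red points passed the limits and open squares did not. Cfd passed against VEH at 0.90 and against LEV at 0.92, the interval of C3 lies above 0 for PB against VEH without passing after adjustment, and every interval for LEV against VEH includes 0.

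C3, on which all complement pathways converge, was next after Cfd in the size of its difference between PB and VEH and did not pass after adjustment. C3 (chromosome 9, 9721137 to 9747085) ran from 18.3 over a median of 27.2 to 45.3 normalized counts in VEH, from 18.4 over 41.5 to 64.2 in PB and from 18.5 over 33.3 to 59.3 in LEV. The lowest animals of the 3 groups were nearly equal, while 5 of 14 PB animals exceeded every VEH animal and 12 of 14 were above the VEH mean of their own code form. The log2 fold change for PB against VEH was 0.46 ± 0.16 (SE; 1.37-fold, 95% interval 1.10 to 1.71), with an unadjusted p of 0.00628 and an adjusted p of 0.0807 in edgeR's test. It was 0.33 ± 0.15 for PB against LEV (adjusted p 0.219) and 0.13 ± 0.16 for LEV against VEH (adjusted p 0.960). The adjusted p for PB against VEH passed in 3 of 41 fits with 1 animal left out, namely without VEH animal 3 (0.55, adjusted p 0.0306), PB animal 2 (0.51, 0.0477) or PB animal 12 (0.50, 0.0421). It also passed without VEH animal 1 and PB animal 2 together (0.54, adjusted p 0.0394), and without VEH animal 1 alone it was 0.49 (0.0663). With VEH animal 7, which the submitters excluded, added to VEH, it was 0.23 (adjusted p 0.583).

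C3 also differed between the code forms. It was higher in one-letter animals by a log2 fold change of 0.46 ± 0.13 (adjusted p 0.00572), as large a step as that with PB. In the two-letter animals LEV had 18.5 over 22.2 to 30.3 and VEH 18.3 over 25.9 to 45.3 normalized counts, and in the one-letter animals LEV had 29.7 over 39.9 to 59.3 and VEH 20.1 over 30.5 to 42.8. LEV thus lay below VEH in one form and above it in the other. The LEV effect was -0.31 ± 0.23 and 0.45 ± 0.20 in these forms, a difference of 0.76 ± 0.31 with an unadjusted p of 0.0196 and an adjusted p of 0.277. The PB effect on C3 was 0.27 ± 0.23 in two-letter and 0.62 ± 0.20 in one-letter animals, a difference of 0.35 with an adjusted p of 0.717. Of the other members only C1qb differed between the forms at an adjusted p under 0.05, being 0.14 lower in one-letter animals on the log2 scale (adjusted p 0.0417).

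The astrocyte marker Gfap was higher after PB, by a log2 fold change of 0.32 ± 0.06 against VEH (adjusted p 0.00241) and 0.37 ± 0.06 against LEV (adjusted p 0.000530). Gfap was the only one of the 17 astrocyte transcripts tested that was higher for PB against VEH at an unadjusted p under 0.05. At that limit 4 were lower, and the median log2 fold change of the 17 was -0.08. C3 is a gene that reactive astrocytes are known to express. The summed level of the 8 listed astrocyte markers was 43430 to 54520 in VEH, 41759 to 54158 in PB and 37729 to 52778 in LEV, with Aldoc and 1 of the 4 Slc1a3 transcripts each at -0.16 for PB against VEH on the log2 scale (adjusted p 0.0136 and 0.0286, under the fold limit), while the other 3 Slc1a3 transcripts ran from -0.13 to 0.12 (adjusted p 0.687 to 0.843). Across 41 animals C3 correlated with the astrocyte list at r = 0.21, with the oligodendrocyte list at 0.45 and with the meningeal fibroblast list at 0.44. Without PB animal 2 these values were 0.13, 0.33 and 0.30. With the meningeal markers as a covariate the log2 fold change of C3 for PB against VEH was 0.41 (adjusted p 0.0745). With the choroid plexus markers it was 0.41 (0.111) and with the microglial markers 0.46 (0.0725), beside 0.46 (0.0807) without a covariate. No fit took Gfap or the astrocyte or oligodendrocyte list as a covariate, so their part in the C3 difference was not tested.

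The receptors showed their larger differences between the drugs. C3ar1, the receptor for the C3a fragment on microglia and other myeloid cells (chromosome 4, 155684027 to 155690870), ran from 20.9 over 34.7 to 57.9 normalized counts in VEH, from 25.7 over 43.1 to 56.9 in PB and from 22.6 over 32.0 to 42.5 in LEV. Of 14 PB animals 7 were above every LEV animal. The log2 fold change was 0.38 ± 0.13 (SE) for PB against LEV, with an unadjusted p of 0.00686 and an adjusted p of 0.0906, and it was 0.20 ± 0.14 for PB and -0.18 ± 0.14 for LEV against VEH (adjusted p 0.438 and 0.923). Neither drug passed the test against VEH for this gene. The PB animals of the two-letter form split, 4 of 6 lying at 25.7 to 27.5 and the other two at 51.3 and 52.4. In one-letter animals 8 of 8 PB animals were above the LEV mean, and in two-letter animals 2 of 6 were.

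C5ar1, the receptor for C5a (chromosome 1, 78186777 to 78195133), was counted 1 to 21 times per animal. It ran from 2.38 over 8.05 to 19.3 normalized counts in VEH, from 4.45 over 12.7 to 20.6 in PB and from 0.948 over 8.51 to 16.8 in LEV. These ranges overlap almost wholly. The log2 fold change was 0.38 for PB against VEH (95% interval -0.17 to 0.93), 0.48 for PB against LEV (-0.07 to 1.03) and -0.10 for LEV against VEH (-0.67 to 0.47). The width of these intervals sets what could be detected at this depth. The LEV effect on C5ar1 was -0.90 ± 0.42 in two-letter and 0.49 ± 0.36 in one-letter animals, a difference with an unadjusted p of 0.0158 and an adjusted p of 0.252.

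**Figure D4:**
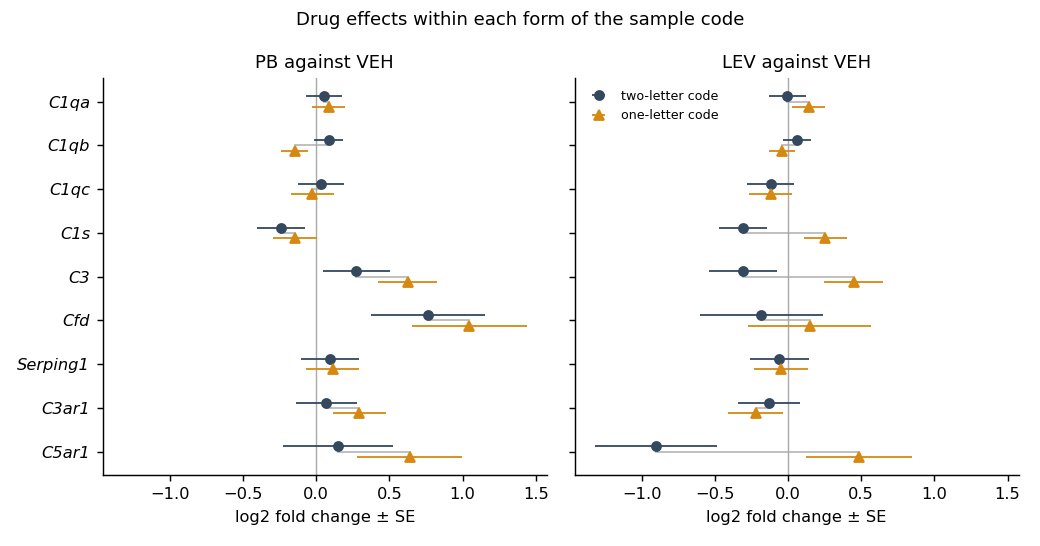
Log2 fold changes with SE (horizontal axes) of the 9 members for PB (left) and LEV (right) against VEH, for animals with the two-letter code (circles) and the one-letter code (triangles), from 1 model with a term for each treatment and form. For PB the forms share their sign for Cfd (0.76 and 1.04) and C3 (0.27 and 0.62). For LEV they have opposite signs for 6 of 9 members, a share not counted over all transcripts. They are furthest apart for C5ar1 (-0.90 and 0.49), C3 (-0.31 and 0.45) and C1s (-0.31 and 0.26), with no difference past an adjusted p of 0.05.

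A treatment-by-code-form term reached an unadjusted p under 0.05 for 4 of 27 member effects, 3 in LEV against VEH and 1 in PB against LEV, and an adjusted p under 0.05 for 0 of 27. Over all 13062 transcripts it reached an unadjusted p under 0.05 for 11.1% in PB against VEH, 12.8% in LEV against VEH and 6.91% in PB against LEV, and an adjusted p under 0.05 for 9 (0.0689%), 110 (0.842%) and 3 (0.023%). The signs of the LEV effect in the 2 forms were opposite for 6 of 9 members, and those of the PB effect for 2 of 9. Opposite signs were not counted over all transcripts, and effects near 0 can take either sign. For C1s the LEV effect was -0.31 ± 0.16 in two-letter and 0.26 ± 0.15 in one-letter animals (adjusted p of the difference 0.243), while for Cfd, C1qa and C1qb both LEV effects were within 1.5 SE of 0.

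The rest of the complement system was looked at through a list of 58 further genes by role, of which 44 were in the table and 27 were tested with 29 transcripts. None of the 29 passed both limits in any of the 3 comparisons. For PB against VEH, 4 had a higher and 1 a lower level at an unadjusted p under 0.05, for LEV against VEH 0 and 1, and for PB against LEV 2 and 2. These are 17.2%, 3.45% and 13.8% of the 29, beside 20.2%, 5.84% and 19.6% of all transcripts. The median log2 fold change of the 29 was 0.03, 0.02 and 0.02 in these comparisons. Among the 5 tested initiators (10 of 14 in the table) and the single tested terminal gene, C8g, no p was under 0.05 in any comparison. The other terminal components in the table were close to 0, with C6, C8a, C8b and C9 at medians of 0 or 1 estimated counts.

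In the central and alternative group C2, the substrate of C1s, was higher after PB without passing. C2 ran from 72.5 over 102.2 to 127.8 normalized counts in VEH, from 79.2 over 123.8 to 167.3 in PB and from 82.5 over 103.5 to 134.5 in LEV. Its log2 fold change was 0.29 ± 0.09 (SE) for PB against VEH (adjusted p 0.0564) and 0.21 ± 0.09 for PB against LEV (adjusted p 0.197). Properdin, Cfp, which stabilizes the alternative convertase, gave -0.09 ± 0.06 (adjusted p 0.463). Of the soluble regulators, 4 were tested. The most counted were clusterin, Clu, at 0.22 ± 0.13 (adjusted p 0.350) and C1qbp at 0.03 ± 0.03 (adjusted p 0.636) for PB against VEH.

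**Figure D5:**
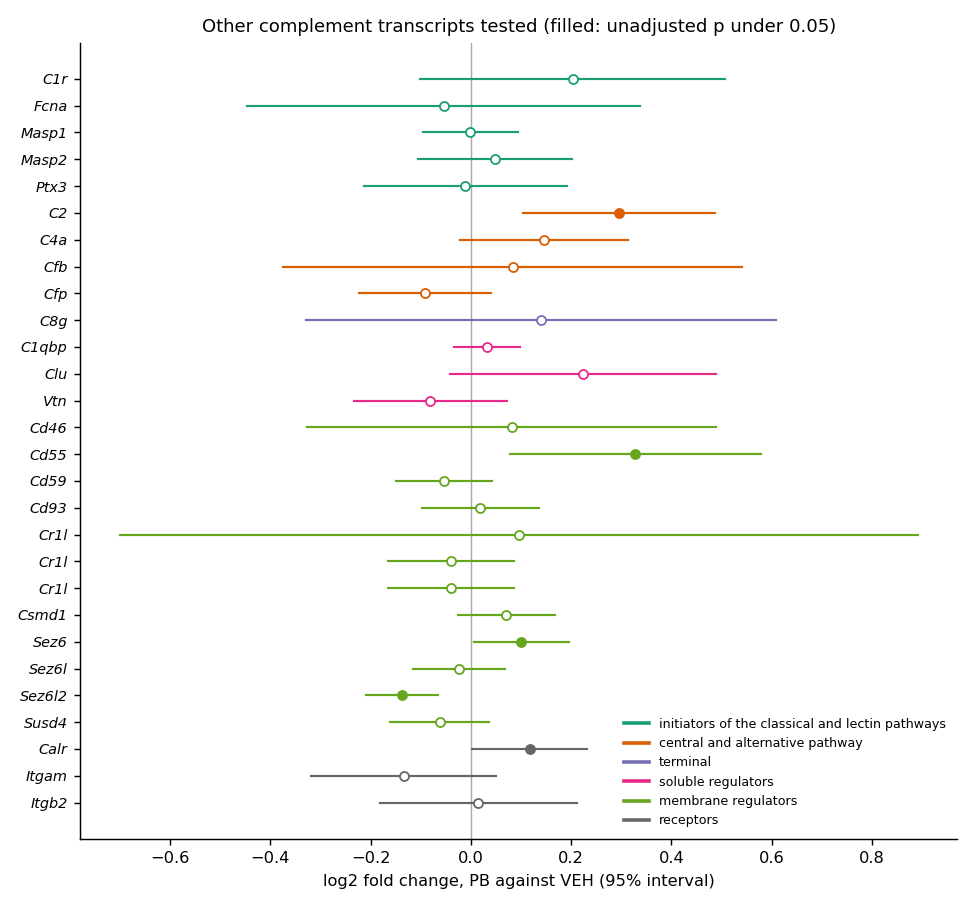
Log2 fold changes (horizontal axis) for PB against VEH of 28 of the 29 other complement transcripts tested, with 95% intervals, colored by role. Filled points have an unadjusted p under 0.05, namely C2 at 0.29, Cd55 at 0.33, Sez6 at 0.10, Sez6l2 at -0.14 and Calr at 0.12, and Cr1l appears with 3 transcripts.

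Of the membrane regulators, 10 genes were tested with 12 transcripts. Over all 13062 transcripts, 704 had an adjusted p under 0.05 for PB against VEH and 581 for PB against LEV. In the wider complement list the single one was Sez6l2, of the Sez6 family of neuronal membrane proteins with complement control domains. It ran from 5663 over 6324 to 6861 normalized counts in VEH, from 4958 over 5694 to 6373 in PB and from 5469 over 6579 to 6953 in LEV. Its log2 fold change was -0.14 ± 0.04 for PB against VEH (adjusted p 0.0168) and -0.16 ± 0.04 for PB against LEV (adjusted p 0.00763), which is under the fold limit. Its relative Sez6 gave 0.10 ± 0.05 for PB against VEH (adjusted p 0.217). Decay-accelerating factor, Cd55, gave 0.33 ± 0.12 (adjusted p 0.113), and Cd59, the inhibitor of the membrane attack complex, gave -0.11 ± 0.05 for PB against LEV (adjusted p 0.156). Among 3 tested receptors, calreticulin, Calr, which binds C1q, gave 0.12 ± 0.06 for PB against VEH (adjusted p 0.234), and Itgam, a chain of complement receptor 3, gave -0.21 ± 0.09 for LEV against VEH (adjusted p 0.816). For the initiators with most counts, Masp1 and Ptx3, PB against VEH gave -0.0010 ± 0.05 and -0.01 ± 0.10.

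The transcripts whose levels went most closely with each member were ranked by Pearson's r of log2 CPM over 41 animals after removal of treatment and code form means. These r values are the highest over all transcripts tested and come from shared libraries. For C3 they were Ntsr2 (0.62), Pnpla1 (0.62) and Plxnb3 (0.61), and for Cfd Pex19 (0.57), Plp2 (0.55) and Tmem107 (0.54). C1qa went with C1qc (0.71), Cops4 (0.67) and Glul (0.64), C1qb with Rpl4 (0.69), Rplp0 (0.67) and C1qc, and C1qc with Vgll4 (0.74), C1qa and C1qb. Serping1 went with Dab2 (0.71), Slc23a2 (0.70) and Tgfbi (0.70), and its r with the meningeal fibroblast, microglia and choroid plexus marker lists was 0.50, 0.49 and 0.48. C1s went with Vamp3 (0.68), Rnf166 (0.66) and Kcnq1 (0.66), C3ar1 with Evc (0.56), Prkd3 (0.55) and Mthfd1l (0.54), and C5ar1 with Rfxap, Dhx16 and Gspt1 (each 0.54). Only the C1q chains had another member among the first 3. Among the other pairs of members the furthest values were 0.52 for C1qb with C5ar1, -0.51 for C3 with C5ar1 and 0.41 for Cfd with C5ar1.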

How the data were processed

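Hippocampal RNA of 42 male rat pups was sequenced, 1 library per animal. The authors trimmed the reads, aligned them to rn6 with STAR 2.7.3a and deposited estimated counts per RefSeq transcript from the Partek E/M algorithm, before any normalization. The authors' deposited table of DESeq2 fold changes and p-values was not used. VEH animal 7, which the submitters marked as excluded, was left out of the main test.

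Estimated counts (13.7% of them not whole) were rounded and analysed with edgeR 4.0.16 in R 4.3.3, with TMM normalization, filterByExpr by treatment and a model of treatment plus code form. Except where DESeq2 is named, p-values are from edgeR's quasi-likelihood test (glmQLFit and glmQLFTest). They were adjusted by Benjamini-Hochberg over the transcripts tested in each fit, 13062 in the main test. A call needed an adjusted p below 0.05 and a log2 change of 0.32 or more either way, the study's limits. The labels do not name the batches that the authors removed, so the form of the sample code stood for them. The test was also run on simulated counts, drawn from an overall mean per transcript and the spread estimated from the data. The simulation held no code form effect, and changes were planted in the PB animals for part of the transcripts. Its outcome is not given here. The 9 members and all gene lists were chosen with earlier results of these data known. Named genes were the members, the listed complement genes with an unadjusted p under 0.05 or the 2 highest mean levels in their role, and the 3 transcripts most correlated with each member. One gene of the wider list is counted but not reported by name here. The alternatives included DESeq2 1.42.0, and 2 were chosen after seeing the data.

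Same-numbered animals were not treated as pairs, since the labels tie no number to a litter and the correlations of their deviations from group means ran from -0.33 to 0.33.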

Additional observations from a re-analysis of the deposited data

Results flagged for a closer look

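Within the 6 groups formed by treatment and code form, each member was checked for a highest or lowest animal whose gap to the next exceeded Dixon's 95% limit. This gave 54 checks, of which chance would mark about 1 in 20, and 4 were marked. PB animal 2 was marked for each C1q chain, with 451 normalized counts of C1qa (next 281), 470.2 of C1qb (next 329) and 395 of C1qc (next 185) among 6 two-letter PB animals. VEH animal 3 was marked for C1qc, with 238 against 199 in the next of 6 two-letter VEH animals.

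The drug effect differed between the code forms at an unadjusted p under 0.05 in 4 of 27 tests of the treatment-by-form term, and in 0 of 27 after adjustment in edgeR's quasi-likelihood test. Over all transcripts the unadjusted share was 11.1% for PB against VEH, 12.8% for LEV against VEH and 6.91% for PB against LEV. For LEV against VEH the one-letter effect exceeded the two-letter effect on the log2 scale by 1.39 for C5ar1, 0.57 for C1s and 0.76 for C3 (adjusted p 0.252, 0.243 and 0.277). For PB against LEV it was lower for C1s, at -0.47 (adjusted p 0.707).

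The animal the submitters excluded, VEH animal 7, lay outside the comparisons and had higher levels than the 13 VEH animals for 4 members. C3 was at 116 normalized counts, 2.56 times the highest VEH animal (45.3) and above all 41 animals. C3ar1 was at 70.0 against 57.9, Serping1 at 109.8 against 90.6 and C1s at 136.9 against 134.8. C3ar1 too was above all 41 animals. Cfd had 0 counts in it, and its C1q chains lay within the VEH range. Its count of the Y-linked Eif2s3y was 115, against 705 to 1028 in the 40 other animals outside VEH animal 1.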

How the results depend on the processing

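The count of members called was 1 in each comparison with PB, and it was 0 in both with a mean of at least 50 counts, no term for the code form, either form alone, the animal number as a replicate block, and only the 2 groups compared. Under DESeq2 defaults both were 0, since Cfd got no adjusted p there; without its filtering and outlier handling (chosen after seeing the data) Cfd had adjusted p 0.0304 and 0.0270. For PB against VEH the count was also 0 with no filter. It was 2, with C3 added, after a batch subtraction modelled on the study's and followed by DESeq2. That subtraction removed code form and treatment-by-form effects, since the study's batches are not named. For PB against LEV the count was also 0 with the excluded animal or with microglia markers as a covariate. It was 0 too without PB animal 2 and VEH animal 1 (chosen after seeing the data). Leaving out 1 animal gave 0 to 2 calls for PB against VEH, 0 to 0 for LEV against VEH and 0 to 1 for PB against LEV. Cfd could not be fitted in the one-letter animals alone, at a mean of 50 counts or with VEH and PB alone, being filtered out. With the excluded VEH animal, C3 was 0.23 for PB against VEH. The replicate block gave Cfd 0.84 (adjusted p 0.0809) and 0.89 (0.0561), and none of the 3 pairings had every same-numbered pair over 0.1, with 3 of 13, 3 of 13 and 4 of 14 pairs over it.

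Sign changes among the alternatives were in values not called. In two-letter animals alone C1qa was 0.052, C1qb 0.019 and C1s 0.065 for PB against LEV, C1qb 0.086 and C1qc 0.032 for PB against VEH, and C1s -0.30 and C3 -0.30 for LEV against VEH. In one-letter animals alone C1qb was -0.041 and C5ar1 0.49 for LEV against VEH. With the treatment-by-form terms C1qa was 0.00058 for PB against LEV, C1qc 0.0025 for PB against VEH and C1s -0.027 for LEV against VEH. With the excluded animal C1qb was -0.015, C1s -0.025, C3 -0.11 and Cfd 0.077 for LEV against VEH. With choroid plexus markers C1qc was 0.027 for PB against VEH, and C1s -0.031 and Cfd 0.0022 for LEV against VEH. With microglia markers C1qc was 0.00092 for PB against VEH, and Cfd 0.020 and Serping1 0.015 for LEV against VEH. C1s for LEV against VEH was -0.00021 with meningeal markers, -0.0055 with the replicate block and -0.028 after the batch subtraction. C1qc for PB against VEH was 0.00027 with counts summed per symbol and 0.00058 with the 2 groups alone, and for PB against LEV -0.0090 without PB animal 2 and VEH animal 1. The cause of these changes was not tested. Leaving out 1 animal turned the sign of C1qc (-0.13 to 0.030) and C1qa (-0.0066 to 0.093) for PB against VEH. For LEV against VEH it turned C5ar1 (-0.19 to 0.028), Serping1 (-0.097 to 0.0028), C1s (-0.032 to 0.057), C1qb (-0.019 to 0.040) and Cfd (-0.095 to 0.095), and for PB against LEV C1qc (-0.0094 to 0.15) and C1qa (-0.082 to 0.020). Cfd for PB against VEH kept its direction in every alternative that gave a value (0.76 to 1.00) and its call in 12 of 17. For PB against LEV the direction was kept too (0.89 to 0.97), and the call in 11 of 18. Both tallies include the settings with no fold limit and with a limit of 1.5, which reused the main fit. Cfd lay above either limit there, so its call could not change. Few counts limit Cfd and C5ar1. Over all transcripts, the calls for PB against VEH (79) became 17 in two-letter and 168 in one-letter animals, 119 after the batch subtraction, 704 without and 15 with a higher fold limit of 1.5, and those for PB against LEV (76) became 24 in two-letter animals, 34 with the excluded animal, 581 without and 20 with the higher limit. For LEV against VEH (0) they were 170 in two-letter animals, 13 after the batch subtraction, 6 in one-letter animals, 5 with DESeq2 or the treatment-by-form terms, and 1 with no count filter, a mean of 50 counts or no fold limit.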
